A study of Homo sapiens with 26 samples.

Results

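The arsenite response of cells that carry the Y396E form of IGF2BP1 was measured in 6 of the 26 poly(A) RNA libraries of the series, 3 from arsenite-treated dishes and 3 from control dishes. Libraries were chosen by their sample titles alone, which name mCherry-IGF2BP1 Y396E and the treatment. The cells were HCT116, a human colorectal carcinoma line, with a doxycycline-inducible OsTIR1 construct and with IGF2BP2 and IGF2BP3 disrupted by CRISPR in single-cell clones. Both groups shared these edits and the lentiviral transgene, which places mCherry-IGF2BP1 under the human PGK promoter, and the Y396E population was sorted through a narrow mCherry gate and was not a single clone. Y396E replaces a tyrosine in the disordered linker 2 of IGF2BP1 by glutamic acid, a residue whose charge resembles that of a phosphate. Arsenite dishes received 500 µM sodium arsenite for 2 h and control dishes received PBS. The other populations measured in the same way carried wild-type IGF2BP1 (WT), S181E, with glutamic acid in place of a serine in linker 1, or RQ, in which arginines of linker 1 are glutamines. RNA came from clarified lysate, and RNA lost with the pellet was not measured. Dishes were plated and grown independently. The p-values therefore measure the spread between dishes within sorted populations, estimated over all populations in the fit.

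Arsenite binds thiol groups of proteins, and cells answer through several pathways. MAP kinases switch on immediate-early transcription factors such as FOS and EGR1. Unfolded protein releases heat shock factor 1, which drives chaperone genes. Phosphorylation of eIF2 lowers protein synthesis and raises ATF4, whose targets include amino acid transporters and aminoacyl-tRNA synthetases. NRF2 drives antioxidant genes and MTF1 drives metallothioneins. mRNAs that leave polysomes gather with RNA-binding proteins in stress granules, where IGF2BP1 is also found.

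The 6 libraries held between 25242341 and 50834401 counts, in a series that ranged from 22508145 to 50834401. Arsenite replicate 3 stood apart in how many genes it detected. It had counts for 13897 genes at a total of 37961265 counts, whereas arsenite replicates 1 and 2 had counts for 21902 and 23473 genes and the controls for 20850 to 21632. Only 534 of its genes had 1 to 9 counts, against 6284 to 7447 in the other 5 libraries. Of 20265 genes with counts in arsenite replicates 1 and 2, 6660 (32.9%) were at 0 in replicate 3, among them 2226 protein-coding genes and 3310 lncRNA genes. The loss followed the level of the gene. Genes at 0.3 to 1 CPM (counts per 1e6 counts, on TMM-scaled totals) in the S181E arsenite libraries were at 0 in 63.9% of cases in replicate 3 and in 0.0% and 0.0471% of cases in replicates 1 and 2. From 3 to 10 CPM the share at 0 was 2.82%, and from 10 CPM it was 0.0%. Genes that were tested all had counts in replicate 3, but their values were more scattered there, with an SD over genes of 0.391 for replicate 3 minus the mean of the other two against 0.1 for replicate 1 minus replicate 2, on the log2 CPM scale. Sample quality weights from voom were 0.052 for replicate 3 and 0.655 to 1.754 for the other 5 libraries. Counts of called genes in a gene list, for the response and for its difference from WT cells, are followed by the counts without this library where they changed. What set the library apart was not tested.

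**Figure D1:**
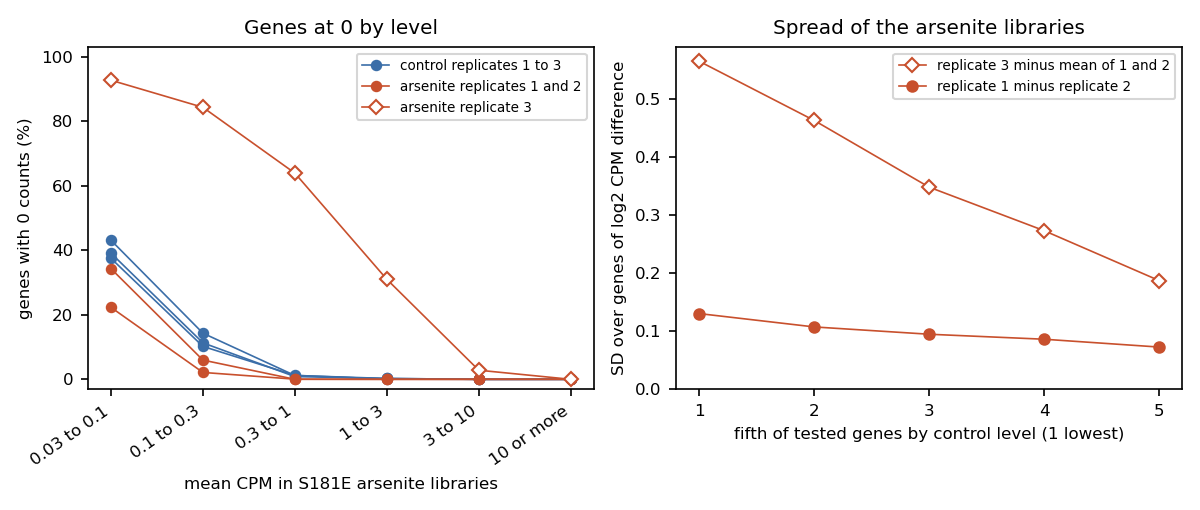
Arsenite replicate 3 against the other Y396E libraries. Left, percent of genes at 0 counts (y axis) in bins of the mean CPM in the S181E arsenite libraries (x axis), with controls in blue, arsenite replicates 1 and 2 as filled points and replicate 3 as open diamonds, which fall from 92.7% in the lowest bin to 0.0% from 10 CPM. Right, SD over tested genes of differences in log2 CPM (y axis) in 5 equal classes of control level (x axis), which fell from 0.565 to 0.187 for replicate 3 minus the mean of replicates 1 and 2 and from 0.13 to 0.0723 for replicate 1 minus replicate 2.

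Markers of the line were read first. Of 9 epithelial colon carcinoma markers 7 were above 1 CPM in at least 1 of the 6 libraries, and CEACAM5 was at 0. Immune and endothelial markers were at or near 0, while some fibroblast, muscle and neural markers passed 1 CPM. PTPRC, the leukocyte surface phosphatase, had no counts, none of 7 immune and none of 4 endothelial markers passed 1 CPM, and of 6 fibroblast markers 1, COL1A1, did. Summed epithelial markers ran from 3570 to 3820 CPM in control and from 5160 to 5720 CPM in arsenite. Of 3 muscle markers 2 passed 1 CPM, and their list summed to 8.49 to 10.5 CPM in control and 11.5 to 15.1 CPM in arsenite. Of 4 neural markers 1 passed, and the sums, nearly all from MBP, were 51.3 to 58.1 and 38.1 to 41.0 CPM. Transcripts of the mitochondrial genome took 12.35% to 17.15% of counts in control and 7.55% to 10.1% in arsenite.

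Arsenite changed most of the measured transcriptome, with near equal numbers of called rises and falls under TMM scaling. Of 9099 protein-coding genes tested with edgeR's quasi-likelihood test, 2995 were higher (32.9%) and 2996 lower (32.9%) in arsenite at a Benjamini-Hochberg adjusted p under 0.05 and a fold change above 1.2, which is the rule for a called gene throughout. Together 5991 genes were called (65.8%). Counts in the gene lists below are to be read beside these shares. The median change over all tested genes was -0.03 on the log2 scale. TMM scaling centres the bulk of genes near 0, so the balance of rises and falls depends on it. With library totals alone 3260 were higher and 2645 lower, and with GC content and gene length corrected 2712 and 3186. Large changes were mostly rises, since 770 genes rose and 212 fell by more than 2-fold. Without arsenite replicate 3, 3070 genes were higher and 2840 lower, 5910 in all (65.0%). TMM factors were computed anew for each set of libraries. Leaving out arsenite replicate 3 of S181E instead gave 3100 higher and 2857 lower. With RLE size factors in place of TMM the counts were 3040 and 2948, and 3026 and 2906 without replicate 3 of Y396E. Counts without arsenite replicate 3 of Y396E therefore mix this rescaling with the loss of the library. Of the calls made with all 6 libraries 90.6% were also made without it, in 5425 genes and with 0 of them in the opposite direction, and 566 calls were lost and 485 gained. In 6638 genes (73%) the 3 arsenite libraries all lay to one side of the 3 controls.

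The strongest rises were those of the immediate-early genes. FOS, the AP-1 subunit that pairs with JUN, had 5.17, 4.27 and 3.96 CPM in control replicates 1, 2 and 3 and 984, 1018 and 1025 CPM in arsenite replicates 1, 2 and 3. The groups were far apart, and replicate 3 was level with the other arsenite libraries. The log2 change was 7.82 ± 0.10 (SE; adjusted p = 6.73e-27, edgeR). EGR2, a zinc finger transcription factor, went from 2.21, 1.95 and 1.69 to 201, 189 and 212 CPM (6.69 ± 0.13). FOSB, another AP-1 subunit, went from 22.3, 20.6 and 15.5 to 1250, 1278 and 1270 CPM (6.03 ± 0.16). JUN went from 22.1, 21.3 and 18.6 to 1063, 1037 and 1090 CPM (5.69 ± 0.10). In each of these genes the lowest arsenite library was many times the highest control, and arsenite replicate 3 lay close to replicates 1 and 2. EGR1 rose from 80.7, 72.1 and 65.1 to 1985, 1835 and 2260 CPM (4.8 ± 0.10), with replicate 3 the highest. ARC, best known as a synaptic immediate-early gene, rose by 2.78 ± 0.09, from 9.87, 8.49 and 8.72 to 58.6, 59.2 and 68.4 CPM.

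The FOS promoter is shown because its gene rose most. The RefSeq window from 250 bases before to 50 bases after the start (GRCh38.p14, chr14:75278578-75278877, plus strand) holds 1 match to TGACG, the core of the cyclic AMP response element, in capitals, 64 to 60 bases before the start.
FOS: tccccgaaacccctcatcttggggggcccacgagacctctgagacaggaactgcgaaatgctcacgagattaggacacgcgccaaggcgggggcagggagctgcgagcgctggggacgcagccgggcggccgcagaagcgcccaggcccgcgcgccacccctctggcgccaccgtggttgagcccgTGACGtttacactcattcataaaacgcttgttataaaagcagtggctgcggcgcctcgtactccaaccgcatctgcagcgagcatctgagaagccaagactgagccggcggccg
TGACG was searched on both strands and is also the first part of the full element TGACGTCA. It was found in 25.0% of all 27305 promoter windows of this length, so the match describes the sequence and marks no binding.

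Of 27 immediate-early genes listed 25 were tested, 15 were called higher and 7 lower, with a median change of 1.89. The risers also included ATF3 (2.7), JUNB (2.69), EGR3 (2.69), IER2 (2.46), NR4A2 (2.39), KLF2 (2.12) and KLF4 (1.25). The list did not move as a block. FOSL2 and FOSL1, FOS-related AP-1 subunits, fell by 2.04 and 1.04 on the log2 scale, SRF, the factor that drives many immediate-early promoters, fell by 1.53, MAFF fell by 1.23 and MYC fell by 0.66. MYC had 407, 439 and 486 CPM in control and 288, 280 and 276 in arsenite, without overlap. JUND (0.04), KLF6 (0.23) and KLF10 (-0.02) were not called. Both genes below the level filter were measured, EGR4 at 0.89, 0.853 and 0.799 CPM in control and 3.5, 2.46 and 3.72 in arsenite, and NR4A3 at 5.31, 4.47 and 6.3 against 13.6, 11.9 and 9.15.

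Feedback genes of growth factor signalling split. DUSP1, a phosphatase that inactivates stress-activated MAP kinases, rose from 11.1, 13.2 and 11.5 to 246, 257 and 259 CPM (4.42 ± 0.07, adjusted p = 2.53e-25, edgeR), and DUSP2 rose from 31.3, 28.4 and 29.2 to 195, 178 and 202 CPM (2.69 ± 0.07). DUSP10, below the filter, was at 0.855, 0.65 and 0.983 CPM in control and 6.05, 6.73 and 10.2 in arsenite. EREG, a ligand of the EGF receptor, moved the other way, from 785, 813 and 739 to 242, 256 and 295 CPM (-1.56 ± 0.07). The ligands TGFA (-1.14) and AREG (-0.85) and the inhibitors SPRED1 (-1.31), ERRFI1 (-1.31), SPRED2 (-1.03) and SPRY4 (-0.68) also fell. Of 16 tested members 4 were higher and 10 lower, with a median of -0.64, and without replicate 3 5 and 10. Only HBEGF (0.82) among the tested ligands was higher.

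**Figure D2:**
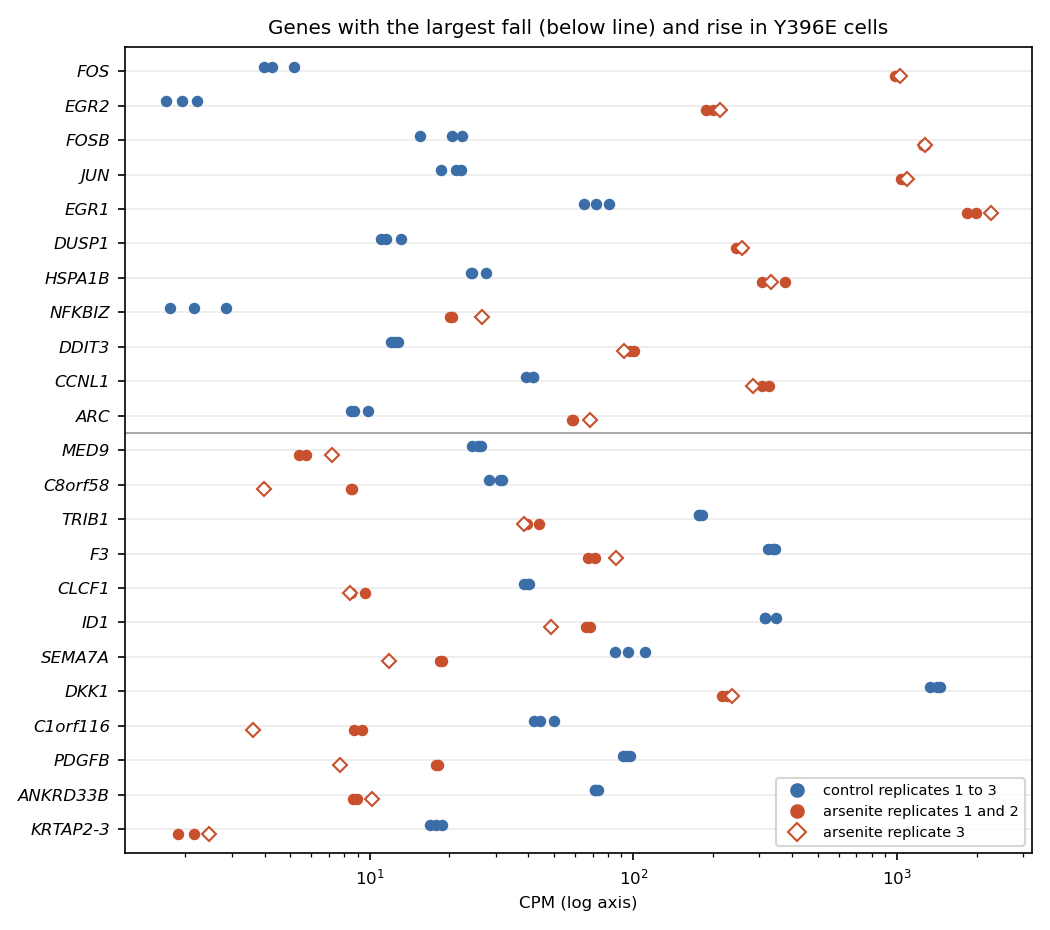
CPM (x axis, log scale) of 12 genes with the largest called falls and 11 with the largest called rises among genes whose groups did not overlap (y axis). Each point is 1 library, with controls in blue, arsenite replicates 1 and 2 as filled orange points and replicate 3 as an open diamond. Replicate 3 lies with the other arsenite libraries for FOS (1025 against 984 and 1018 CPM) and below them for PDGFB (7.72 against 18.2 and 17.9 CPM).

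Chaperone genes of the heat shock response rose across the folding machinery. HSPA1B, the main inducible HSP70, rose from 24.3, 24.5 and 27.5 to 374, 307 and 332 CPM (3.73 ± 0.08, adjusted p = 5.63e-22, edgeR). The groups were far apart, and replicate 3 lay between the other two. HSPA1B and HSPA1A are nearly identical copies whose reads can be split or lost, so the level of either is uncertain. HSPA1A was below the filter, at 0.534, 0.609 and 0.676 CPM in control and 11.9, 8.58 and 15.4 in arsenite. BAG3, a nucleotide exchange factor of HSP70, rose from 53.6, 50.99 and 55.8 to 317, 299 and 351 CPM (2.59 ± 0.06). HSPH1, an HSP110 disaggregase partner, rose from 62.3, 67.1 and 66.1 to 293, 272 and 251 (2.06 ± 0.06). The constitutive HSPA8 rose as well, from 807, 857 and 911 to 2314, 2278 and 2483 (1.46 ± 0.06).

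The HSPA1B promoter is printed because it is the best known site of heat shock factor action (RefSeq, GRCh38.p14, chr6:31827488-31827787, plus strand). Capitals mark the match to GAANNTTC, a pair of inverted heat shock units, 105 to 98 bases before the start.
HSPA1B: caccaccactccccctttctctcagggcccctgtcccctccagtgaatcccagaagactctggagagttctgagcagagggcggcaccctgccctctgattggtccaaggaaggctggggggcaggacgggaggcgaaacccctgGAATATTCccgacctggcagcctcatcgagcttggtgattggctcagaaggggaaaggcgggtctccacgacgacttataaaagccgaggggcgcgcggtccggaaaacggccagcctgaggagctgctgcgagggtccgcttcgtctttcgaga
GAANNTTC reads the same on both strands. It was present in 5 of the 14 HSP70 and HSP110 windows (35.7%) and in 6.9% of all windows. HSPA1A and HSPA1L share a single site, chr6:31815429-31815452, on opposite strands, and neither they nor HSPA6 were tested. Among tested genes the letters were in 4.2% of windows, in 4.1% for genes called higher and in 4.2% for genes called lower. TTCNNGAA, the same units in the other order, was in 3 of the 14 HSP70 and HSP110 windows (21.4%) and in 7.8% of all windows.

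Of 11 tested HSP70 and HSP110 genes 8 were called higher and 1 lower, with a median of 1.11, and without replicate 3 9 and 1. BAG1 (-0.56) fell, and HSPBP1 (0.07) and HSPA13 (0.16) were not called. Of 10 tested J-domain proteins, which stimulate HSP70, 7 were higher and 0 lower (median 0.66), led by DNAJB1, which went from 264, 270 and 288 to 943, 883 and 915 CPM (1.74 ± 0.05). DNAJA1 (1.46 ± 0.06) and DNAJB4 (1.29 ± 0.07) followed. Among 22 tested genes for HSP90, small heat shock proteins, chaperonins and cofactors 16 were higher and 1 lower (median 0.69). HSP90AB1 rose from 1190, 1216 and 1256 to 4539, 4484 and 4447 CPM (1.88 ± 0.08), HSP90AA1 by 1.36 ± 0.07 and HSF2 by 1.35 ± 0.10. Each of CCT2, CCT3, CCT4, CCT5, CCT6A, CCT7 and CCT8, subunits of the cytosolic chaperonin, rose, by 0.37 to 0.84, while TCP1 (0.11), also a subunit, was not called. HSPE1 fell by 0.54 on the log2 scale although HSPD1, its partner in the mitochondrial chaperonin, rose by 0.88. HSPB1 (0.05) and HSF1 itself (-0.11) were not called.

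Metal response genes were split. MT1X, a metallothionein, rose from 24.6, 23.7 and 24.3 to 59.8, 60.1 and 76.4 CPM (1.44 ± 0.11). MT2A, the most counted metallothionein, had 620, 576 and 596 CPM in control and 624, 537 and 639 in arsenite, overlapping, with a change of 0.01 ± 0.07. SLC30A1, a zinc exporter, fell from 118, 116 and 98.03 to 47.3, 38.6 and 59.5 CPM (-1.19 ± 0.11). MT1E (-0.27) and MTF1 (-0.32) were called lower with all 6 libraries and not without replicate 3, where they were at -0.16 and -0.11. Of 5 tested members 1 was higher and 3 lower, and without replicate 3 the counts were 1 and 1. MT1A, MT1B, MT1H and MT1M were listed at 0 in all 6 libraries.

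The promoters of MT1X and MT2A are shown together because the genes differed in response (RefSeq, GRCh38.p14, plus strand, chr16:56682220-56682519 and chr16:56608334-56608633). Capitals mark TGCNCNC, a loose form of the core of the metal response element with any base at N, on either strand.
MT1X: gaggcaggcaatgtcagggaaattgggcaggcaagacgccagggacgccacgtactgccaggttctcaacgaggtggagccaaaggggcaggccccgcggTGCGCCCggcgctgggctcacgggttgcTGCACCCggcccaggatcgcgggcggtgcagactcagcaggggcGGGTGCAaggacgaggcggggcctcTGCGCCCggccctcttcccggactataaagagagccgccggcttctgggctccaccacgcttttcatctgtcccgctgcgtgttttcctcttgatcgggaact
MT2A: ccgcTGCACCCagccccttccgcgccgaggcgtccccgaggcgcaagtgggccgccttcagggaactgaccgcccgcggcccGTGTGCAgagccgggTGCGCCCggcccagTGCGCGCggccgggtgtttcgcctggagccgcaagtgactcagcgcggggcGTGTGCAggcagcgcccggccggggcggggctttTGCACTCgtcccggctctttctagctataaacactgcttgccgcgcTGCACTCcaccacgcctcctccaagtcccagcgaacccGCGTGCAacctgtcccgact
MT1X held 4 matches and MT2A 8, so the gene with more matches was the one that was not called. All 6 metallothionein and metal response windows held this loose pattern, as did 55.2% of all windows.

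NRF2 targets gave no common direction. Of 25 tested, 9 were higher and 6 lower, with a median of 0.16, and without replicate 3 10 and 5. Over all tested genes 32.9% were higher and 32.9% lower. HMOX1, heme oxygenase, rose from 20.3, 20.4 and 22.3 to 42.9, 42.8 and 62.5 CPM (1.23 ± 0.10), with replicate 3 the highest, and by 1.05 without it. OSGIN1 (1.06 ± 0.09) and the NADPH-producing enzymes PGD (0.94 ± 0.06) and ME1 (0.54) rose too, as did transketolase, TKT (0.93). TXNRD1, thioredoxin reductase, fell from 656, 713 and 700 to 379, 391 and 360 CPM (-0.87 ± 0.04). Ferritins FTH1 (-0.70) and FTL (-0.57), TXN (-0.55) and the cystine transporter SLC7A11 (-0.56) fell as well. GCLM (-0.02), GCLC (0.17) and NQO1 (0.17) were not called.

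Genes of the integrated stress response went in both directions, 11 of 23 higher and 10 lower (12 and 11 without replicate 3), with a median of 0.26 that was 0.03 when GC content and gene length were corrected. DDIT3 (CHOP) rose from 12.4, 12.8 and 12.04 to 101, 97.2 and 92.1 CPM (2.96 ± 0.09), DDIT4, an inhibitor of mTORC1, from 15.8, 14.6 and 14.4 to 82.98, 82.8 and 100 (2.57 ± 0.10), and PPP1R15A (GADD34), which restores eIF2, from 125, 121 and 120 to 538, 539 and 525 (2.13 ± 0.05). None of the 3 had overlapping groups. SESN2 (1.66), PHGDH (0.91), SHMT2 (0.80) and EIF2AK3 (0.75), which encodes the eIF2 kinase PERK, were also higher. ATF4 (-0.43), ATF5 (-1.12), CEBPD (-1.6), STC2 (-0.99) and the amino acid transporters SLC7A5 (-0.89) and SLC7A1 (-0.82) were lower. TRIB3 had 40.4, 38.4 and 39.9 CPM in control and 51.7, 49.2 and 41.2 in arsenite (0.26 ± 0.12), and was called higher only without replicate 3.

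Cytosolic aminoacyl-tRNA synthetases, which load tRNAs with amino acids, rose without exception. All 20 were tested and called higher, by 0.32 (KARS1) to 2.13 (EPRS1), with a median of 0.73. Without replicate 3 the count was again 20. EPRS1 rose from 47.9, 53.4 and 48.6 to 211, 221 and 225 CPM (2.13 ± 0.05), AARS1 from 62.4, 64.9 and 65.8 to 230, 220 and 218 (1.79 ± 0.09) and VARS1 from 133, 141 and 134 to 452, 430 and 399 (1.65 ± 0.07). The letters TGATGNAA, as in the C/EBP-ATF response element, were looked for on both strands of the promoter windows. These letters were among several patterns searched in every gene list, of which only some are shown. They were in 6 of the 16 synthetase windows that matched by symbol (37.5%) and in 3.7% of all windows. In the list of integrated stress response and ATF4 targets they were in 3 of 22 windows (13.6%). Among tested genes the share was 1.5%, with 1.4% for genes called higher and 1.8% for genes called lower. The 6 sites are printed with 8 bases on either side, on the strand of the gene (RefSeq, GRCh38.p14), with the match in capitals. They lie at chr16:70289678-70289701 (AARS1), chr11:3057410-3057433 (CARS1), chr9:92293695-92293718 (IARS1), chr12:57488056-57488079 (MARS1), chr18:57621807-57621830 (NARS1) and chr5:33440959-33440982 (TARS1), with MARS1 and TARS1 on the plus strand.
AARS1: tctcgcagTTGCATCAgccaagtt
CARS1: ggcggcggTTGCATCAgattctag
IARS1: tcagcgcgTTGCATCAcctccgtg
MARS1: ggttccggTTGCATCAgcgaggga
NARS1: acgctctcTGATGCAAcgccggaa
TARS1: cctttcgaTTGCATCAgctggtcc
Changes of these 6 genes ran from 0.72 to 1.79, with a median of 1.12, and those of the other 14 from 0.32 to 2.13, with a median of 0.61. EPRS1, the largest rise, was among the 14. The ranges overlapped, and the split was made after the values were known.

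Chaperones and regulators of the endoplasmic reticulum went both ways. Of 21 tested genes 10 were higher and 4 lower (median 0.22), or 9 and 3 without replicate 3. HERPUD1, a degradation factor, rose from 44.7, 44.5 and 39.1 to 134, 140 and 148 CPM (1.72 ± 0.07). HYOU1 (0.80 ± 0.09), HSP90B1 (0.77 ± 0.09) and HSPA5 (0.76 ± 0.09), the central chaperone BiP, rose less. CRELD2 (-0.41), DNAJC3 (-0.34), EDEM1 (-0.29) and SEC61B (-0.29) fell, CRELD2 and EDEM1 only when replicate 3 was included. Sterol synthesis genes had 11 of 24 higher and 3 lower (median 0.17), or 13 and 3 without replicate 3, with HSD17B7 at 1.02 ± 0.11 and HMGCS1 at 0.77 ± 0.08. INSIG1, which holds back sterol synthesis, fell by 0.66 on the log2 scale.

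UBB, a polyubiquitin gene, rose from 1204, 1221 and 1287 to 1769, 1741 and 1563 CPM (0.45 ± 0.05, adjusted p = 4.44e-09, edgeR). Among 10 tested polyubiquitin and autophagy genes 8 were higher and 1, WIPI1 (-0.70 ± 0.08), lower (median 0.42), including the receptors TAX1BP1 (0.63 ± 0.06) and SQSTM1 (0.48). Of 29 tested proteasome subunits 9 were higher (against 32.9% of all tested genes) and 0 lower (median 0.16). Those 9 belong to the regulatory particle. PSMD1 stood out at 78.2, 82.3 and 78.5 CPM in control and 251, 248 and 206 in arsenite (1.56 ± 0.06), ahead of PSMD2 (0.59 ± 0.07) and PSMC6 (0.45 ± 0.06). Without replicate 3, 12 proteasome genes were higher and 0 lower, and with GC content and gene length corrected 16 were higher and 2 lower (median 0.29).

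Among NF-kB genes NFKBIZ, an atypical IkB protein, rose from 2.85, 2.15 and 1.75 to 20.4, 20.1 and 26.6 CPM (3.32 ± 0.18). NFKB2 (1.58 ± 0.07) and the deubiquitinase TNFAIP3 (1.26 ± 0.17, with 11.6, 11.3 and 17.4 CPM in arsenite) were also higher, NFKBIA (0.12) was not called, and 5 of 10 tested genes were higher and 2 lower (median 0.24), or 5 and 3 without replicate 3. Chemokines were scarce, with CXCL8 at 2.07, 3.09 and 2.12 CPM in control and 1.88, 1.6 and 3.24 in arsenite. TNF had no counts in the controls, 0.841 and 0.635 CPM in arsenite replicates 1 and 2 and none in replicate 3. p53 targets showed 6 of 17 higher and 6 lower (median 0.03), or 7 and 6 without replicate 3. These counts were near the 32.9% higher and 32.9% lower of all tested genes. ZMAT3 (-1.27 ± 0.10) and MDM2 (-1.03 ± 0.10, -1.24 without replicate 3) fell, XPC, a DNA repair gene, rose (1.13 ± 0.09), and CDKN1A had 382, 361 and 356 CPM in control and 348, 343 and 358 in arsenite, overlapping. RNA decay regulators had 5 of 13 higher and 5 lower (median 0.20), also near the 32.9% in each direction. ZFP36, which binds AU-rich elements, rose from 56.2, 54.4 and 48.05 to 194, 189 and 212 CPM (1.91 ± 0.06), TOB1 by 1.53 ± 0.06 and the endonuclease ZC3H12A by 1.38 ± 0.10, whereas ZFP36L1 (-0.36), ZFP36L2 (-0.36) and CNOT7 (-0.78) fell.

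HEXIM1, the inhibitor that holds P-TEFb in the 7SK complex, rose from 132, 127 and 122 to 374, 363 and 361 CPM (1.53 ± 0.04), HEXIM2 by 1.24 ± 0.10 and BRD2 by 0.66 ± 0.04. In all, 5 of 13 P-TEFb, 7SK and BRD genes were higher (against 32.9% of all tested genes) and 1 lower, with a median of 0.23. The counts were 6 and 1 without replicate 3, and 5 and 3 with a median of 0.04 when GC content and gene length were corrected. CLK1, a kinase of SR proteins, rose from 15.1, 16.4 and 14.2 to 72.7, 73.1 and 70.4 CPM (2.25 ± 0.07), CLK4 by 1.19 ± 0.12 and TRA2A by 1.15 ± 0.05. Of 14 SR genes 9 were higher and 3 lower (median 0.60), or 9 and 2 without replicate 3, SRSF1 being the largest fall (-0.52). CCNL1, a cyclin that pairs with CDK11 in splicing, was among the 12 largest rises, from 41.6, 41.6 and 39.1 to 307, 327 and 284 CPM (2.91 ± 0.06).

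DKK1, a secreted Wnt inhibitor, had the highest control level of the 12 largest falls and went from 1446, 1419 and 1334 to 217, 225 and 236 CPM (-2.63 ± 0.09, adjusted p = 2.64e-18, edgeR). KRTAP2-3, a keratin-associated protein gene, went from 18.8, 17.9 and 16.9 to 2.15, 1.89 and 2.46 CPM (-3.05 ± 0.13) and ANKRD33B from 71.6, 71.7 and 73.4 to 8.95, 8.68 and 10.2 (-2.96 ± 0.08). F3, the tissue factor that starts coagulation, went from 338, 344 and 322 to 71.5, 67.1 and 85.7 CPM (-2.16 ± 0.08). TRIB1, a pseudokinase, fell by 2.14 ± 0.05 on the log2 scale, CLCF1, a cytokine, by 2.17 ± 0.09 and MED9, a Mediator subunit, by 2.06 ± 0.11. In these genes arsenite replicate 3 was within the range of the other arsenite libraries or near it. It lay well below them in a few others. PDGFB, a growth factor, had 18.2, 17.9 and 7.72 CPM in arsenite against 96.96, 93.3 and 91.02 in control, and its change of -2.69 ± 0.16 was -2.36 without replicate 3. The corresponding changes were -2.66 ± 0.19 and -2.31 for C1orf116, -2.57 ± 0.14 and -2.36 for SEMA7A, a membrane semaphorin, and -2.12 ± 0.16 and -1.81 for C8orf58. All 4 were called both ways.

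ID genes, which encode dominant-negative helix-loop-helix proteins and are targets of BMP signals, fell together. ID1 went from 348, 314 and 316 to 68.2, 65.8 and 48.7 CPM (-2.42 ± 0.09), ID2 from 238, 242 and 237 to 56.4, 59.4 and 62.2 (-2.01 ± 0.06) and ID3 from 217, 202 and 203 to 94.8, 92.8 and 90.99 (-1.16 ± 0.06), with no overlap in any. In their list of 7 tested genes 5 were lower and 2 higher (median -1.16), the latter being SKIL (1.81 ± 0.18), a repressor of SMAD proteins, and TGIF1 (0.46). Wnt feedback genes had 5 of 7 lower and 1 higher, TCF7L2 (0.56 ± 0.06), with a median of -0.39. Without replicate 3, 2 were lower, DKK1 and NKD1 (-0.50), and the median was -0.21. ZNRF3 had 21.5, 22.5 and 22.6 CPM in control and 17.9, 19.4 and 9.28 in arsenite, and its change of -0.52 ± 0.15 was -0.22 and not called without that library. AXIN2, a direct Wnt target below the filter, was at 2.46, 2.72 and 2.64 CPM in control and 5.62, 6.29 and 11.7 in arsenite. Cytoskeletal targets of SRF and YAP had 2 of 13 higher and 5 lower (median 0.01), or 3 and 5 without replicate 3. The actin crosslinkers FLNA (1.69 ± 0.06) and ACTN1 (1.21 ± 0.08) rose, MYL9 (-1.47 ± 0.10) fell, and CCN1 (0.20) and CCN2 (0.01) were not called.

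**Figure D3:**
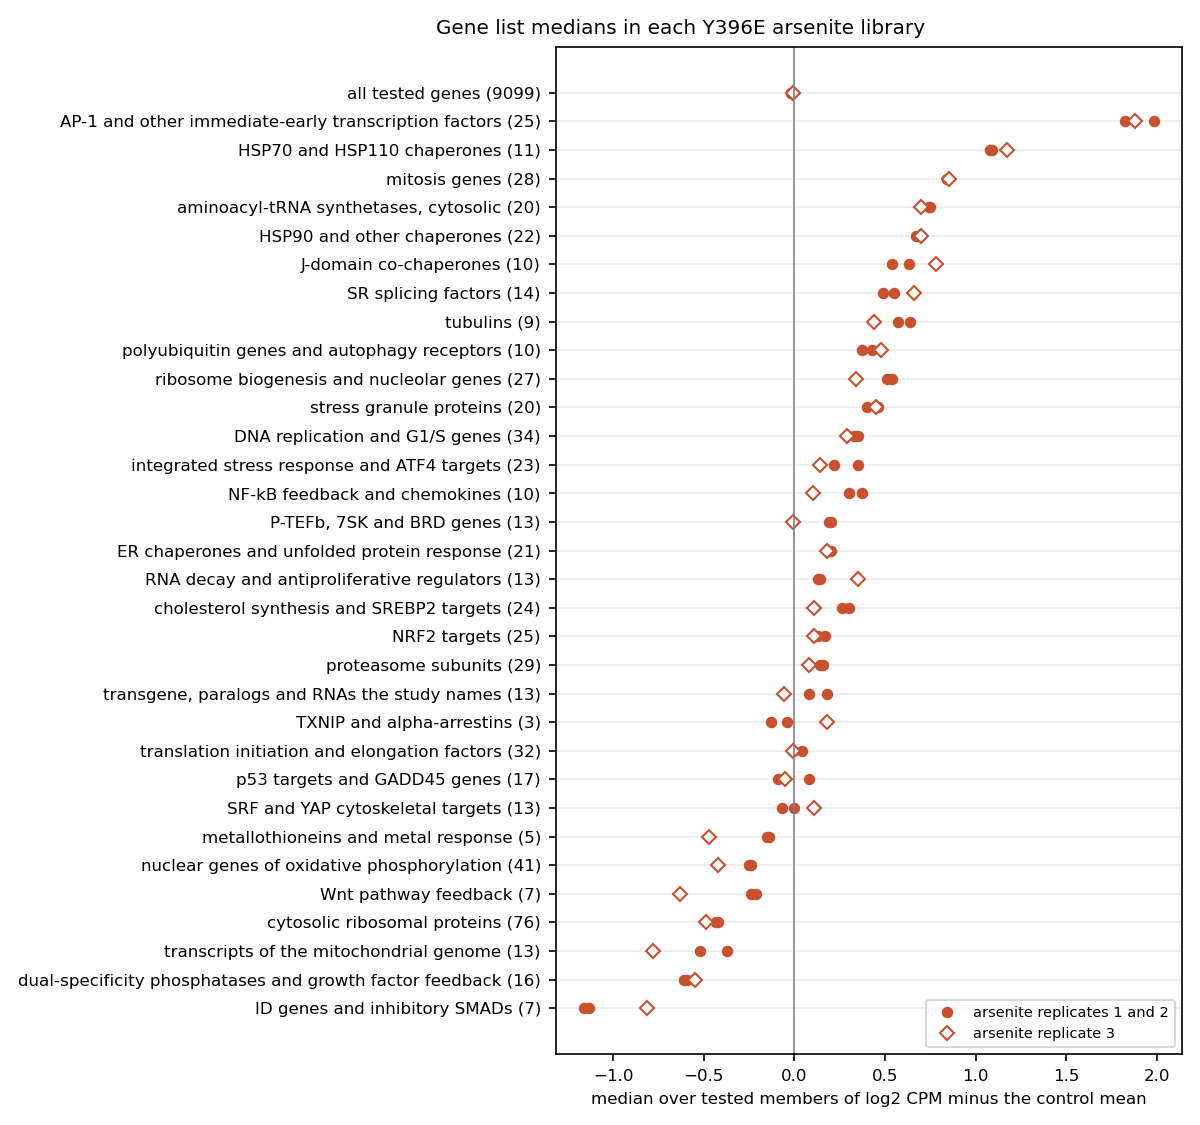
Median over the tested members of each gene list of log2 CPM minus the mean of the 3 controls (x axis) in each arsenite library, with the number of tested members in parentheses (y axis). Replicates 1 and 2 are filled points and replicate 3 is an open diamond. Replicate 3 lies with the others for the synthetases (0.70 against 0.74 and 0.75) and below them for mitochondrial transcripts (-0.78 against -0.52 and -0.37) and Wnt feedback genes (-0.63 against -0.21 and -0.24).

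Ribosomal protein mRNAs were lower as a class by a small amount. Of 76 tested genes 65 were called lower and 0 higher, with a range of -0.70 to 0.01 and a median of -0.45, against 32.9% lower and a median of -0.03 over all tested genes. The count without replicate 3 was 66. RPLP0 had 4708, 4387 and 4599 CPM in control and 2899, 2803 and 2715 in arsenite (-0.70 ± 0.04), followed by RPSA (-0.69 ± 0.05) and RPL12 (-0.68 ± 0.06). RPL3 (0.01) was the highest of the class. These mRNAs are short, and length moved with the change, since in 5 equal classes of gene length the shortest had a median of -0.19 and the others 0.02 to 0.08. With GC content and gene length corrected 38 ribosomal protein genes were lower, 1 was higher and the median was -0.27. Initiation and elongation factors were split, with 9 of 32 higher and 7 lower (median 0.03), or 9 and 6 without replicate 3. Neither count exceeded the share of all tested genes, 32.9% in each direction. EIF5B (1.64 ± 0.08), EIF3A (1.31 ± 0.07) and EIF4G1 (1.24 ± 0.08) rose and EIF4EBP1 (-0.64), EIF1AX (-0.62) and EIF4E (-0.41) fell. EEF1G and EIF4A1, which every growing cell needs, were listed at 0 in all 6 libraries, and RPS10 and RPL36A were under 5 CPM, so these values do not give the level of their RNA.

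Transcripts of the mitochondrial genome were lower. Of 13 tested 10 were called lower and 0 higher (median -0.56), and without replicate 3 the count was 9 and the median -0.43. MT-ND6, the single light-strand mRNA, had 214, 151 and 117 CPM in control and 51.7, 42.4 and 39.4 in arsenite (-1.85 ± 0.22). MT-ND1 went from 5079, 4011 and 3785 to 2146, 2323 and 1876 CPM (-1.02 ± 0.11) and MT-ND5 fell by 0.91 ± 0.14 on the log2 scale. Control dishes varied among themselves in these genes, replicate 1 being the highest in each. With GC content and gene length corrected the median of the 13 was -0.15, with 6 lower and 2 higher. Nuclear genes of oxidative phosphorylation had 21 of 41 lower and 8 higher (median -0.27), or 15 and 9 without replicate 3, and 11 and 10 with a median of -0.04 under that correction. The large catalytic subunits SDHA (0.79 ± 0.10) and NDUFS1 (0.75 ± 0.07) rose, while small subunits such as UQCRQ (-0.64), NDUFA1 (-0.63) and COX8A (-0.58) fell.

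Cell division genes rose. Of 28 tested mitosis genes 23 were higher and 0 lower, with a median of 0.90. The medians of the single arsenite libraries over the control mean were 0.84, 0.84 and 0.85. TTK, a spindle checkpoint kinase, rose from 19.7, 18.2 and 17.8 to 71.5, 77.3 and 98.1 CPM (2.15 ± 0.10), TOP2A from 42.3, 42.8 and 38.03 to 170, 179 and 192 (2.14 ± 0.06) and KIF20A from 30.4, 31.8 and 34.6 to 127, 130 and 132 (2.0 ± 0.06). BIRC5 (-0.25), CENPA (-0.13) and UBE2C (0.21) were not called. In bulk RNA, more cells of one phase and more RNA per cell cannot be told apart. DNA replication and G1/S genes had 18 of 34 higher and 8 lower (median 0.33), or 20 and 8 without replicate 3. The ribonucleotide reductase subunit RRM1 (1.67 ± 0.07), the polymerase subunit POLA1 (1.24 ± 0.07), ORC1 (1.22 ± 0.07) and MCM2 to MCM7 (0.69 to 1.21) rose, and E2F1 (-0.58), CCNE1 (-0.55), CCND1 (-0.51) and GINS2 (-0.71) fell.

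Ribosome biogenesis genes, unlike the ribosomal proteins, had 16 of 27 higher and 2 lower (median 0.42), or 17 and 2 without replicate 3, with NAT10 at 1.49 ± 0.06, NOP58 at 1.43 ± 0.07 and RRP12 at 1.39 ± 0.07. The members that fell were POLR1C (-1.21), a subunit shared by RNA polymerases I and III, and NOP16 (-0.51). Tubulins had 7 of 9 higher and 0 lower (median 0.57), TUBB2A (1.55 ± 0.08) ahead of TUBA1A (0.93 ± 0.10) and TUBB4B (0.67 ± 0.05). Of 20 genes for stress granule proteins 14 were higher and 1, PABPC1 (-0.37), was lower (median 0.40). ATXN2 rose from 17.4, 18.9 and 19.3 to 53.5, 59.4 and 54.05 CPM (1.59 ± 0.07), UBAP2L by 1.12 ± 0.07 and ATXN2L by 1.00 ± 0.05, and the core assembly gene G3BP1 went from 119, 119 and 128 to 200, 206 and 184 CPM (0.69 ± 0.06). None of the 3 tested alpha-arrestins was called (ARRDC1 0.10, ARRDC2 -0.07, ARRDC3 0.07), and TXNIP was listed at 0 in all 6 libraries.

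The transgene itself rose in RNA. IGF2BP1 (ENSG00000159217.10, chromosome 17, 48997385 to 49056145, hg38) had 15.1, 16.4 and 17.4 CPM in control and 44.1, 41.8 and 42.1 in arsenite (1.39 ± 0.10, adjusted p = 3.44e-12, edgeR). The 2 libraries of parental cells without a transgene gave 10 and 23 counts, or 0.338 and 0.674 CPM. Counts per gene do not show the Y396E codon. IGF2BP3 fell slightly, from 164, 161 and 163 to 128, 137 and 116 CPM (-0.35 ± 0.05), and IGF2BP2 had 69.8, 75.01 and 80.3 and 65.1, 68.7 and 61.5 (-0.20 ± 0.06, under the fold threshold). Both transcripts were still counted, which does not test the edits. Among 13 genes that the study names, some of them chosen on these samples and so no independent evidence, 3 were higher and 4 lower (median 0.08), or 4 and 5 without replicate 3. HMGA2, a known IGF2BP target, fell from 247, 254 and 256 to 137, 141 and 130 CPM (-0.89 ± 0.06) and GARS1 rose by 0.75 ± 0.07. ACTB had 3797, 4000 and 4367 and 4715, 4614 and 4748 CPM (0.21 ± 0.05), below the fold threshold.

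Some tested genes turned on replicate 3. It lay more than 1 log2 unit above both other arsenite libraries in 27 tested genes and below both in 160. UBE2D4, a ubiquitin-conjugating enzyme, was farthest below, with 13.4 and 13.7 CPM in replicates 1 and 2 and 0.453 in replicate 3, against 27.9, 32.0 and 28.1 in control. Its change of -1.68 was -1.09 without replicate 3 and was called both ways. ZNF33B (7.9, 7.71 and 0.402 CPM), CCDC167 (19.0, 19.5 and 2.11) and PLPP5 (14.9, 15.9 and 1.84) also kept their calls. CREB3L4 (10.4, 10.7 and 1.26) was not called either way, with changes of -0.56 and -0.03. In the other direction, PLEKHH1 (9.05, 9.52 and 25.2 CPM) and TP53I3 (14.6, 14.3 and 37.0) were called higher with all 6 libraries, at 0.88 and 0.72, and not without replicate 3, at 0.25 and 0.13. LSM11 (6.02, 6.37 and 17.5) and ZNF704 (5.92, 5.81 and 15.5) were called lower only without it, at -0.76 and -0.94. TMEM60 (9.62, 8.81 and 23.5) was not called either way.

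The response in Y396E cells was then compared with those in WT, RQ and S181E cells by testing the difference of responses in the same edgeR fit. The 3 comparisons share the 6 Y396E libraries. Each form of IGF2BP1 was carried by a sorted population of its own, so form and population cannot be told apart. Against WT, 1954 genes differed (21.5%), 940 with a higher and 1014 with a lower log2 change in Y396E (10.3% and 11.1%). Without replicate 3 the count was 2176 (23.9%), 1262 and 914. Leaving out control replicate 2 of WT brought the count to 1159, 527 and 632. Against RQ, 2265 differed (24.9%), 1004 and 1261, and without replicate 3, 2551 (28.0%), 1404 and 1147. Against S181E 0 genes differed (0.0%) with edgeR, DESeq2 and voom, and 376, 381 and 426 genes had an unadjusted p under 0.05. The lowest adjusted p was 0.853. The middle 95% of genes had differences from S181E between -0.29 and 0.31, or between -0.18 and 0.17 without replicate 3, at a median SE of 0.11 and 0.09. A difference that misses the threshold does not show that both populations responded alike. The directions of the WT and RQ differences depended on scaling. With library totals in place of TMM the median over all genes moved from -0.02 to -0.12 for WT and to -0.13 for RQ, and the share of higher differences fell from 48.1% to 18.4% and from 44.3% to 17.2%. Which direction held more of the differences also turned with other settings, among them leaving out arsenite replicate 3 of Y396E or that of S181E. With RLE size factors the WT counts were 1006 higher and 928 lower, and 1100 and 1052 without replicate 3 of Y396E. Lists are therefore read beside these shifts.

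Many chaperone genes rose less in Y396E than in WT cells. HSPA1B rose in WT from 23.9, 21.2 and 25.5 to 710, 695 and 714 CPM, a change of 4.9 against 3.73 in Y396E and a difference of -1.18 ± 0.11 (adjusted p = 2.88e-07, edgeR). In RQ it reached 967, 861 and 866 CPM (5.44), and in S181E the change was 3.59. Control levels ran from 19.5 to 27.5 CPM in the 3 populations, and the arsenite libraries of Y396E lay below each of those of WT and RQ. DNAJB4 gave the most negative difference from WT, with 11.6, 12.6 and 11.5 CPM in WT control and 71.9, 70.3 and 68.5 in WT arsenite (-1.27 ± 0.10). Of 11 HSP70 and HSP110 genes 7 had a lower change in Y396E than in WT and 0 a higher one, as had 6 and 0 of 10 J-domain genes and 11 and 0 of 22 HSP90 and other chaperone genes, against 11.1% and 10.3% of all genes. These 3 medians were 1.11, 0.66 and 0.69 in Y396E, 1.67, 0.85 and 0.99 in WT, 1.76, 0.82 and 1.04 in RQ and 1.10, 0.59 and 0.68 in S181E. The lower counts without replicate 3 were 7, 5 and 10. With totals alone the counts were 7, 7 and 17 lower and 0 higher in each, and with GC content and gene length corrected 6, 3 and 10.

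Other lists with mostly higher genes in Y396E cells had lower changes there than in WT for part of their members. Mitosis genes had 20 of 28 with a lower change and 0 higher, at medians of 0.90 in Y396E and 1.29 in WT. For ribosome biogenesis the count was 13 of 27 (0.42 and 0.76), for DNA replication 15 of 34 (0.33 and 0.55), for stress granule proteins 8 of 20 (0.40 and 0.99) and for synthetases 8 of 20 (0.73 and 1.10). None of these lists had a gene with a higher change, and with totals alone the lower counts were 23, 17, 20, 13 and 12. In the same order they were 21, 11, 14, 6 and 7 without replicate 3. With GC content and gene length corrected the synthetase count was 4, and 1 stress granule gene had a higher change. Ribosomal proteins had 18 of 76 higher differences and 0 lower, at medians of -0.45 and -0.68. That count depended on the setting, being 38 without replicate 3 and 2 with totals alone. Mitochondrial transcripts had 3 of 13 higher differences (medians -0.56 and -0.93), 11 without replicate 3 and 2 with totals alone. Control levels differed as well. All counts from the mitochondrial genome took 21.09% to 26.87% of WT control libraries and 12.35% to 17.15% of Y396E control libraries. In arsenite the shares were 10.81% to 12.28% in WT and 7.55% to 10.1% in Y396E. Immediate-early genes went both ways, 6 higher and 4 lower, at medians of 1.89 and 1.95. JUN rose by 5.69 in Y396E, 4.73 in WT, 5.08 in RQ and 5.67 in S181E, and FOS by 7.82, 7.73, 7.92 and 7.99.

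**Figure D4:**
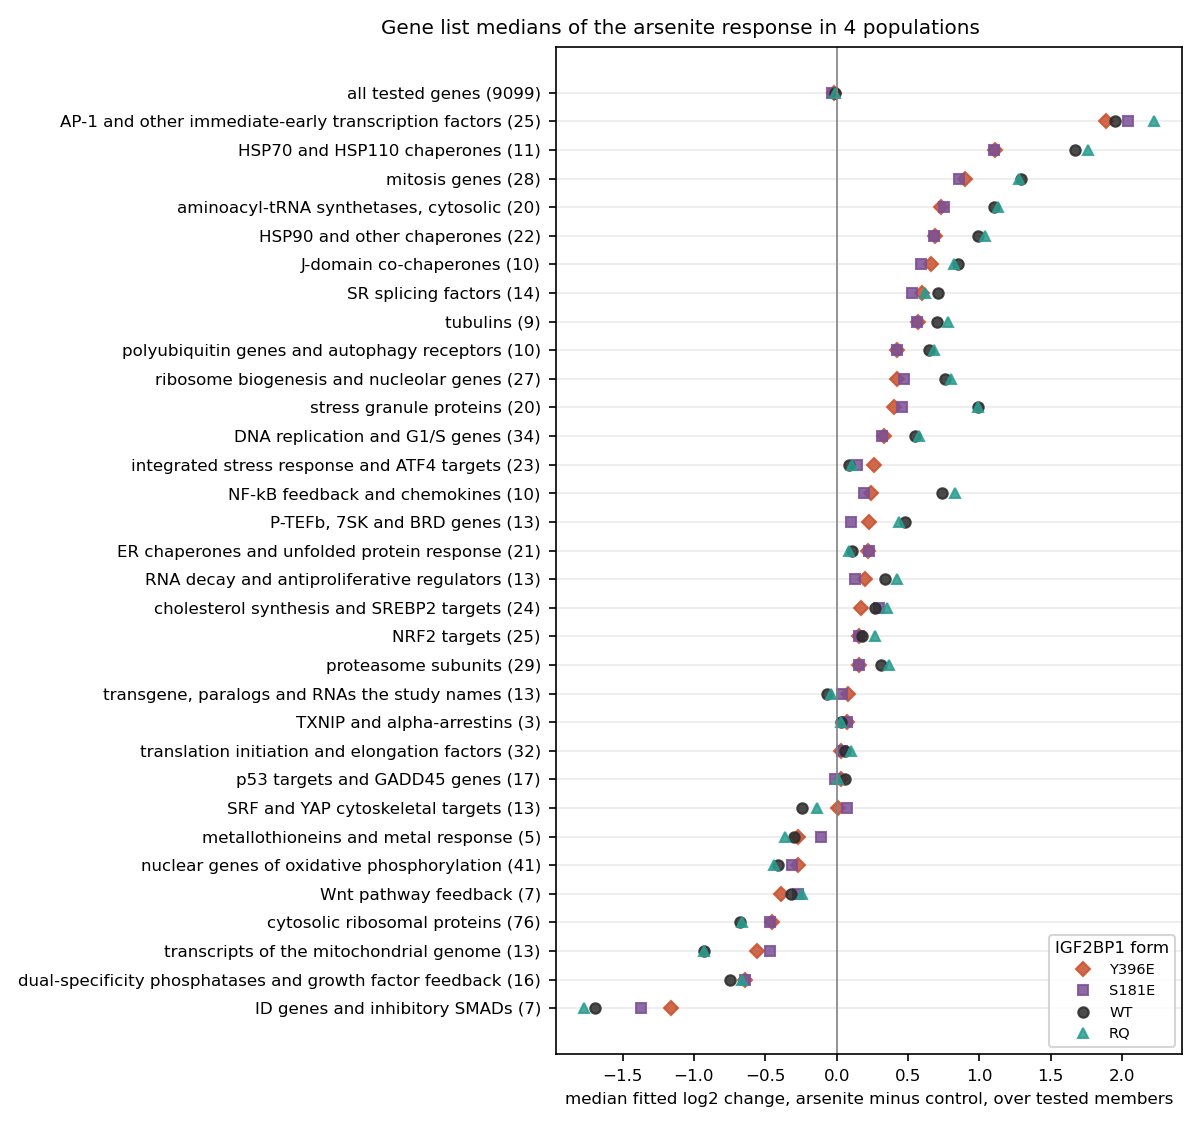
Median fitted log2 change, arsenite minus control, over the tested members of each gene list (x axis) in Y396E, S181E, WT and RQ cells, with the number of tested members in parentheses (y axis). For HSP70 and HSP110 chaperones Y396E and S181E lie at 1.11 and 1.10 and WT and RQ at 1.67 and 1.76, and for mitosis genes at 0.90, 0.86, 1.29 and 1.28.

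Several of the widest positive differences were in genes with different control levels in the 2 populations. ANGPTL4, a secreted lipase inhibitor, rose from 5.95, 6.05 and 4.61 to 13.4, 15.1 and 15.6 CPM in Y396E and went from 15.1, 13.1 and 14.1 to 13.1, 9.43 and 11.5 in WT (1.74 ± 0.18). The arsenite levels nearly met, and the control levels did not. MERTK, a receptor kinase, showed the same order, with 5.17, 4.23 and 3.66 CPM in Y396E control and 14.1, 12.3 and 10.9 in WT control (1.39 ± 0.18). DKK1 differed at both ends, at 217, 225 and 236 CPM in Y396E arsenite and 51.6, 51.7 and 54.8 in WT arsenite, from 1446, 1419 and 1334 and 885, 1060 and 767 in control (1.47 ± 0.12). TMEM51 had 28.1, 27.3 and 46.9 CPM in Y396E arsenite, and its difference of 1.4 ± 0.19 was 1.13 without replicate 3. Among the negative differences, those of MEPCE, CDC25C and ELF2 were also smaller without replicate 3, at -0.86, -0.75 and -0.58 against -1.07, -1.0 and -0.90, and all 3 were called both ways. Their control levels were higher in Y396E than in WT. MEPCE had 15.9, 17.7 and 16.7 CPM against 11.4, 11.5 and 7.2, and ELF2 19.6, 19.0 and 17.4 against 16.3, 11.8 and 14.6. CDC25C had 8.3, 7.23 and 6.82 CPM against 4.69, 4.15 and 5.17 in control. In arsenite it had 22.3, 22.2 and 12.9 against 22.2, 24.7 and 25.4.

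Against RQ, the 5 most negative differences included HSPA1B (-1.71) and DNAJB4 (-1.56) beside 3 stress-induced regulators. SESN2, a stress-induced regulator of mTORC1, rose from 11.5, 13.1 and 11.8 to 34.5, 35.9 and 44.1 CPM in Y396E and from 12.6, 9.51 and 12.6 to 121, 132 and 165 in RQ, a difference of -1.93 ± 0.17 (adjusted p = 2.5e-08, edgeR). DDIT4 reached 82.98, 82.8 and 100 CPM in Y396E and 238, 278 and 311 in RQ (-1.29 ± 0.14), and ATF3 369, 366 and 335 and 600, 558 and 551 (-1.34 ± 0.12). In control, DDIT4 had 15.8, 14.6 and 14.4 CPM in Y396E and 20.1, 20.0 and 16.7 in RQ. ATF3 differed at both ends, with control levels of 61.2, 54.7 and 48.4 CPM in Y396E and 35.5, 29.0 and 38.9 in RQ. Of 23 tested genes of the integrated stress response 10 had a lower change in Y396E than in RQ and 1 a higher one, against 1261 (13.9%) and 1004 of all 9099 tested genes. Beside WT, where 11.1% of all genes were lower and 10.3% higher, the counts were 4 and 0. Among positive differences KRT7 fell to 19.9, 17.8 and 19.5 CPM in Y396E and to 3.91, 3.84 and 4.09 in RQ, from 30.9, 27.8 and 33.1 and 19.7, 23.5 and 19.8 (1.72 ± 0.16), and KRT80, another epithelial keratin, to 11.8, 13.5 and 14.1 and 3.19, 4.06 and 4.23 (1.71 ± 0.15). In S181E their falls were -0.91 and -2.18, against -0.69 and -1.9 in Y396E.

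**Figure D5:**
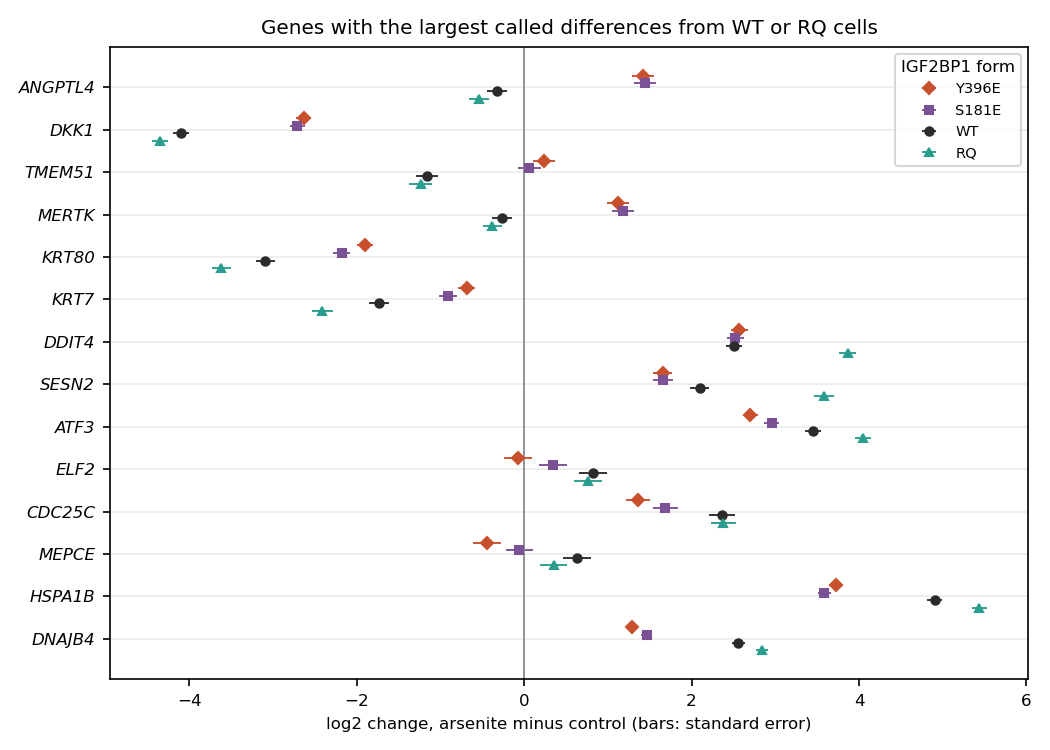
Log2 change, arsenite minus control, with its standard error (x axis) in Y396E, S181E, WT and RQ cells for 14 genes with the widest called differences of Y396E from WT or RQ (y axis). ANGPTL4 and MERTK lie above 0 in Y396E (1.42 and 1.12) and S181E (1.45 and 1.18) and below 0 in WT (-0.33 and -0.27) and RQ (-0.54 and -0.38).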

How the data were processed

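Poly(A) RNA was sequenced from 3 arsenite and 3 control dishes per population. According to the methods and processing notes, the authors demultiplexed with bcl2fastq 2.20.0.422, checked reads with FastQC 0.11.9, aligned them with STAR 2.7.11b to hg38 and counted them per gene, with strand, with featureCounts of Subread 2.0.6. The deposited values are raw counts per gene. From these counts, CPM were computed on TMM-scaled totals. The test covered 9099 protein-coding genes, those above 10 CPM in 12 or more of the 24 libraries with a transgene. All 24 libraries, 8 groups of 3, entered one fit of edgeR 4.0.16 (quasi-likelihood test, two-sided, 16 residual degrees of freedom, R 4.3.3) with Benjamini-Hochberg adjustment. Called genes had an adjusted p under 0.05 and a fold above 1.2. DESeq2 1.42.0, voom of limma 3.58.1, other scalings and filters, GC content and length offsets, a replicate block and leaving out libraries were alternatives. The test of the response was tried on simulated counts with the same spread for all genes and few changed genes. The simulation held no library like arsenite replicate 3 and did not cover the differences of responses.

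Populations and gene lists were chosen with earlier results of these data known. Named genes were the 12 largest called rises and falls without overlap, the 5 largest called differences in each direction, the 5 genes with replicate 3 farthest above and below, and list members. Some genes that the rule names are not reported here. Depth was 25242341 to 50834401 counts, and reads without molecular identifiers are not independent molecules. Immunoprecipitated libraries were not used here.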

Additional observations from a re-analysis of the deposited data

Results flagged for a closer look

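The responses of Y396E and WT cells differed by the test of the difference itself (edgeR's quasi-likelihood test, Benjamini-Hochberg adjusted) in 1954 genes. In log2 units, Y396E minus WT, the most negative were DNAJB4 at -1.27, HSPA1B at -1.18, MEPCE at -1.07, CDC25C at -1.0 and ELF2 at -0.9. Among the most positive were ANGPTL4 at 1.74, DKK1 at 1.47, TMEM51 at 1.4 and MERTK at 1.39. Against RQ cells 2265 genes differed by the same test. There, Y396E minus RQ was -1.93 for SESN2, -1.71 for HSPA1B, -1.56 for DNAJB4, -1.34 for ATF3 and -1.29 for DDIT4. It was 1.96 for ANGPTL4, 1.72 for KRT7, 1.72 for DKK1 and 1.71 for KRT80.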

How the results depend on the processing

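With a fold above 2 in place of 1.2, 982 genes were called in Y396E cells, 21 in the difference from WT and 28 in the difference from RQ. Leaving out 1 library at a time gave 5884 to 6092 genes for the response, 1159 to 2442 for the difference from WT, 1683 to 2744 for that from RQ and 0 to 0 for that from S181E. The lowest value for WT came without WT control replicate 2. The other 159 of 163 counts stayed within 1.5 times the value reported, and no named gene reversed direction. Totals in place of TMM gave 3260 higher and 2645 lower genes for the response, 409 and 1813 for WT and 447 and 2155 for RQ. The balance of higher and lower differences turned, from 940 and 1014 for WT and 1004 and 1261 for RQ, to 1262 and 914 and 1404 and 1147 without arsenite replicate 3, and to 872 and 627 and 1076 and 920 with offsets for GC content and length. It also turned when arsenite replicate 3 of S181E was left out (1101 and 740 for WT, 1226 and 954 for RQ). Of 4633 values for 113 named genes 4608 kept their side of the threshold, and of 1312 list medians 144 moved by more than the spread between replicates. In the main fit dishes were not paired by replicate number. Deviations of equally numbered control and arsenite dishes of Y396E correlated at 0.08, 0.09 and 0.04, each small but the best match of its number. Whether equal numbers mark shared handling is not settled by these values. With the replicate block 6009 genes were called in the response, 2065 in the difference from WT and 2374 in that from RQ. With only the 6 Y396E libraries and the block, added after seeing the data, 5401 were called. Genes under 10 CPM were limited by arsenite replicate 3, in which many of the weakest genes were at 0.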

Other observations

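Non-coding RNAs were tested by adding all gene types to the same fit, in which 66.0% of 9172 genes were called. Of these calls 3042 were higher and 3007 lower, or 3008 and 2990 without arsenite replicate 3. Of 126 lncRNA genes 15 were higher and 87 lower, with a median of -0.46 on the log2 scale, or 9 and 90 without arsenite replicate 3, with a median of -0.47. NORAD, which binds PUMILIO proteins, had 223, 223 and 223 CPM in control and 81.8, 75.6 and 83.5 in arsenite (-1.46 ± 0.05, SE). NEAT1, the scaffold of paraspeckles, fell by 0.86 and SNHG16 by 1.08. MALAT1, a nuclear speckle RNA, rose from 89.5, 76.1 and 59.3 to 226, 220 and 262 CPM (1.67 ± 0.11). SNHG12 rose from 37.3, 33.0 and 34.2 to 89.4, 82.9 and 88.6 CPM. No library of one group overlapped the other in NORAD, MALAT1 or SNHG12.

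Both mitochondrial ribosomal RNAs were called lower. MT-RNR1 had 7390, 6300 and 4870 CPM in control and 1180, 892 and 653 in arsenite (-2.75 ± 0.21). MT-RNR2 had 33900, 29000 and 21900 CPM in control and 6010, 6260 and 4400 in arsenite (-2.33 ± 0.15). Controls were spread widely in both, without reaching the arsenite libraries.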
